A study of Mus musculus with 4 samples.

Results

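Nuclear pore and nuclear transport genes were followed in donor blood progenitors recovered from untreated or drug-treated marrow, and comprised 50 of the 23284 gene symbols in the deposited tables. Members were chosen by symbol: every row that begins with Nup, Kpna, Kpnb, Xpo, Ipo or Tnpo and a digit, plus Ran, Rangap1, Ranbp1, Ranbp2, Cse1l and Rcc1. The rule uses no measured value, but it was set with earlier results of these data known. Donor cells were LSK cells (lineage-negative, Sca1-positive, c-Kit-positive marrow cells, the fraction that holds stem and multipotent progenitor cells) of CAG-EGFP mice, in which the ubiquitous CAG promoter drives EGFP. Each wild-type recipient received 100000 of them, and 24 h later the EGFP+ cells in its marrow were sorted again and their RNA sequenced. The control group had untreated recipients, and the other group had recipients given 5-fluorouracil (5-FU, a pyrimidine analog that kills dividing cells) at 200 mg/kg 2 days before the transplant. There were 2 libraries per group, 4 in all, titled as biological replicates and taken here as 1 recipient each. The labels give no age or sex of the mice and do not state if 1 pool of donor cells was used, so the spread between libraries need not hold all variation between donors.

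The nuclear pore is a ring-shaped channel through the nuclear envelope, built from many copies of nucleoporins. Its scaffold consists of the Y complex and the inner ring, its channel is filled by nucleoporins with phenylalanine-glycine repeats, and filaments and a basket extend to the cytoplasm and the nucleus. Importins carry proteins inward and exportins carry cargo outward, and the GTPase Ran sets the direction because its GTP-bound form is made at chromatin by Rcc1 and is spent in the cytoplasm by Rangap1. Dividing cells assemble new pores and, during mitosis, reuse Ran and importins to guide the spindle.

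Values are FPKM, fragments per length of transcript and size of library, so levels of different genes can be compared per length. A library's FPKM summed to between 678222 and 762107. No source used here states the depth. Among genes low in both libraries compared, the commonest ratio of FPKM to that of 5-FU recipient 2 was 1.307 for control recipient 1, 1.257 for control recipient 2 and 1.07 for the other 5-FU library. If those ratios reflect single reads, the control libraries were the shallower ones. Changes are log2 fold changes of FPKM + 1, 5-FU minus control, with the standard error (SE) from limma, and a gene is said to have risen when its Benjamini-Hochberg adjusted p was under 0.05 over all 11496 genes tested. Adding 1 FPKM understates the change of low genes.

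Markers were checked against the labelled cell type. All 12 fixed markers of stem and progenitor cells were above 0 in every library, and their summed level was 914.2 and 834.3 FPKM in control recipients 1 and 2 and 771.1 and 1026 FPKM in 5-FU recipients 1 and 2. Macrophage markers were far higher, at 21338 and 24620 FPKM in the control and 16987 and 8811 FPKM in the 5-FU libraries, with none of the 12 at 0. RNA of progenitors and of other cells was not separated, and in such bulk samples fewer cells of a type and less RNA per cell cannot be told apart.

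Nuclear transport transcripts were higher in cells from 5-FU-treated recipients. Their summed level was 1123 and 1105 FPKM in control recipients 1 and 2 and 2507 and 3210 FPKM in the 5-FU libraries, with no overlap between the groups. Here and below, values of a group are given for recipient 1 and then recipient 2. That sum made up 0.165% and 0.163% of all FPKM in the control libraries and 0.370% and 0.421% in the 5-FU libraries. Much of it came from Ranbp1, Ran and Kpna2, which had 996.2, 569.8 and 269.0 FPKM in 5-FU recipient 2. The median level of the tested members was 13.96 and 14.68 FPKM in the control and 27.32 and 26.18 FPKM in the 5-FU libraries. Of the 50 members, 46 passed the filter of 1 FPKM in at least 2 libraries and were tested. Among these 17 rose, none fell and 29 did not pass, so 37.0% rose, while 8.23% of all genes tested rose and 4.67% fell. The median log2 fold change was 0.82 for the tested members and −0.01 for all tested genes. In 42 of the 46 both 5-FU values lay above both control values, which is 91.3%, where 31.4% of all tested genes showed that order. In none did both lie below, the order of 30.7% of all tested genes. All 46 had a positive fold change, as did 49.2% of all tested genes, although that of Ipo8 was 0.00 and turned negative under TPM scaling and those of Kpna1 and Tnpo1 turned negative with a 5-FU library left out. The number of calls rested on both control libraries: with control replicate 1 or control replicate 2 left out only 1 member passed, Nup43 or Kpna2 respectively (beside 0.765% or 0.800% of all genes), whereas 28 passed without 5-FU replicate 1, where the share of all genes that rose was 18.5%. With no filter on low values none of 49 members passed in limma, the only tool run, but calls were lost for nearly all genes (0.0183% of 16391 rose). In that fit 30 members were higher at an unadjusted p under 0.05, as were 11.9% of all genes.

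**Figure D1:**
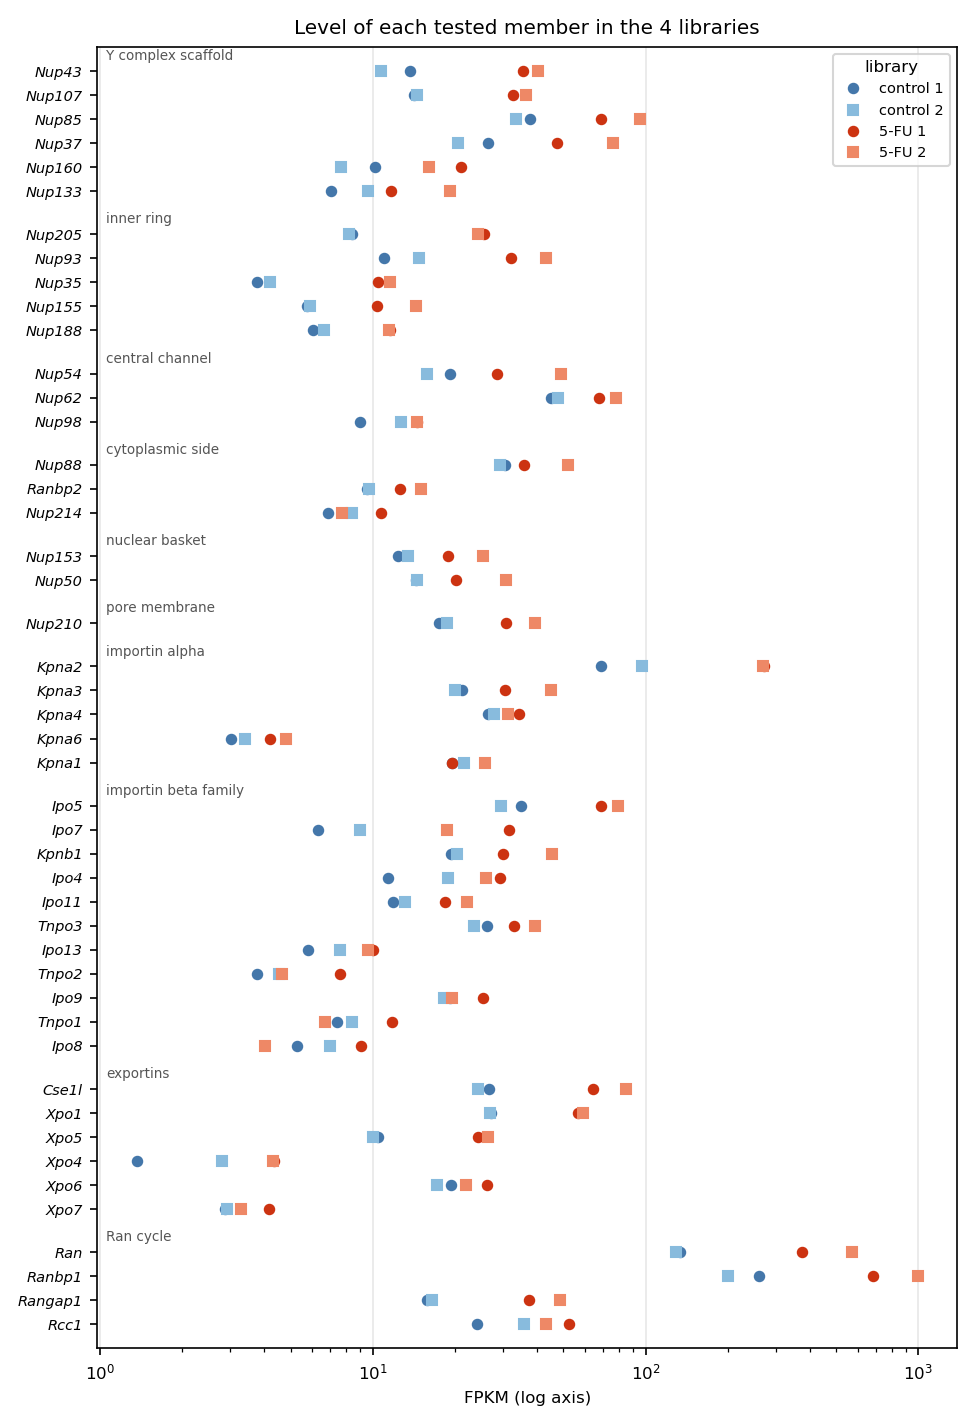
FPKM of each of the 46 tested members in the 4 libraries, on a log axis and grouped by role; blue points are control recipients and red points 5-FU recipients, circles replicate 1 and squares replicate 2. Ranbp1, Ran and Kpna2 are the most abundant members, and the red points lie to the right of the blue ones in 42 of 46 rows.

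**Figure D2:**
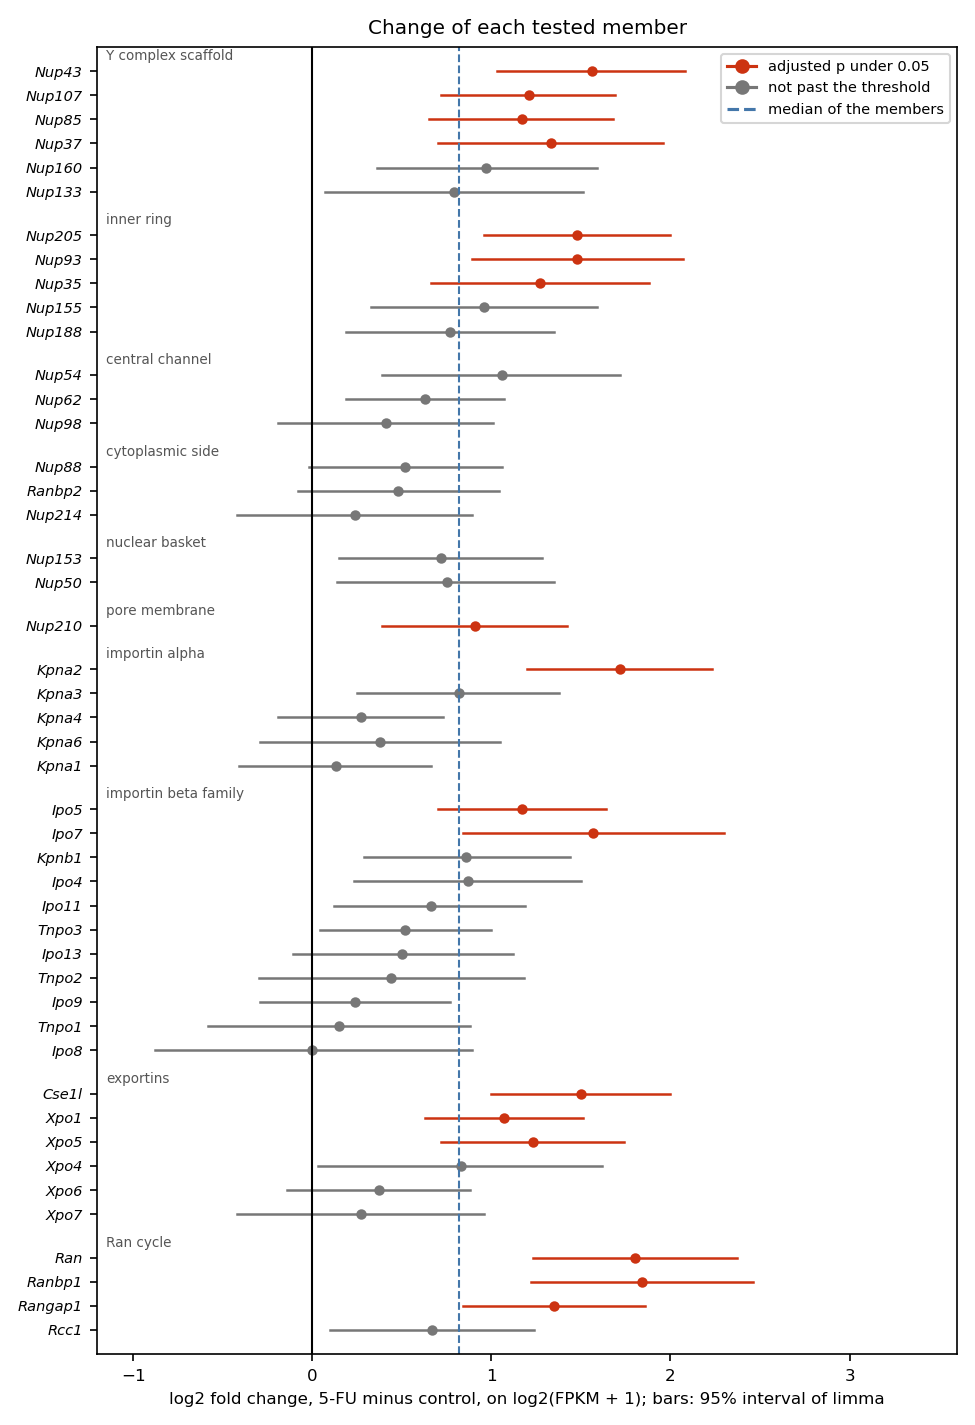
Log2 fold change of each tested member, 5-FU minus control on log2(FPKM + 1), with the 95% interval of limma as a bar; red marks an adjusted p under 0.05 and the dashed line the median of 0.82. The 17 members that rose lie at 0.91 or above.

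The promoters of the members with the largest rises are shown because these transcripts moved together, each from 250 bases before to 50 bases after the RefSeq transcript start on its own strand, 5′ to 3′ (RefSeq, GRCm38.p6, the build mm10 corresponds to). Ran lies at chr5:129019906-129020205 on the plus strand, Ranbp1 at chr16:18248645-18248944 on the minus strand and Kpna2 at chr11:106999476-106999775 on the minus strand. Capitals mark matches to a set of motifs searched on both strands: the E-box CACGTG, the CCAAT box, the NRF1 core GCGCATGC, the E2F sites TTTCCCGC and TTTGGCGC and TTTCGCGC, and the cell cycle homology element TTTGAA. In the Ran promoter the NRF1 core matches both strands in overlapping positions, and no other marked motif overlaps another in these promoters.
Ran: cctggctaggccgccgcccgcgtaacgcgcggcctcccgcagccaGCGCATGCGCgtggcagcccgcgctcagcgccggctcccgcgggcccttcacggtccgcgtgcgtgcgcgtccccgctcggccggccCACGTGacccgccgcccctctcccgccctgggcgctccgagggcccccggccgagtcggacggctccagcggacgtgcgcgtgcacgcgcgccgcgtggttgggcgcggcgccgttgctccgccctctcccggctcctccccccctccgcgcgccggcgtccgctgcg
Ranbp1: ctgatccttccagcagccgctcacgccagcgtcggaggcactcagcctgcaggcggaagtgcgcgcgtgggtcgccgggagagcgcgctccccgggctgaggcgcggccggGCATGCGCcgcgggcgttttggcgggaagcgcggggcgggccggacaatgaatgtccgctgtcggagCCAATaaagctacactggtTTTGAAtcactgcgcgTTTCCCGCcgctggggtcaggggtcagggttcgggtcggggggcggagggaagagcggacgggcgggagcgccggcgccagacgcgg
Kpna2: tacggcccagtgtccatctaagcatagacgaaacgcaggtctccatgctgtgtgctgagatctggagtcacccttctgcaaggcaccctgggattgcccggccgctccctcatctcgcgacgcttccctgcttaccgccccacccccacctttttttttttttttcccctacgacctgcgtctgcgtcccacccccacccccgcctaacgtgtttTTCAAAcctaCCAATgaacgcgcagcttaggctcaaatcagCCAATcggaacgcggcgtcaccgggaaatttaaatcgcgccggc

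The Ran promoter holds 1 E-box and the overlapping pair of NRF1 cores in 82.0% G and C. That of Ranbp1 has 1 CCAAT, 1 NRF1 core, 1 E2F site and 1 TTTGAA, and that of Kpna2 has 2 CCAAT and 1 TTTGAA, on the opposite strand. The RefSeq table matched 39 of the 50 members, with 46 promoters. It holds no entry for Cse1l, Kpna1, Kpna3, Kpna6, Nup35, Nup43, Nup62-il4i1, Nup85, Nup210l, Xpo4 and Xpo7. Among the 44 promoters of tested members the E-box occurred in 18.2%, CCAAT in 50.0%, the NRF1 core in 15.9%, an E2F site in 6.82% and TTTGAA in 22.7%. Over all 32851 promoters in the table the shares were 7.15%, 37.4%, 2.71%, 1.84% and 17.9%, and over the 10507 promoters of all genes tested here they were 10.3%, 38.1%, 5.32%, 3.49% and 12.0%. The GC box GGGCGG, not marked above, occurred in 65.9% of the members' promoters, 35.7% of all and 61.9% of those of genes tested here. These 3 sets differed in base composition, with a median of 64.5%, 52.7% and 60.3% G and C, and the shares were not adjusted for it. The shares count promoter entries, and some members have several. The entries of Nup37 overlap and hold the same TTTGAA and CCAAT matches. Those of Ipo9 also overlap and share a CCAAT, so these matches count more than once. Members that rose had 16 of the 44 promoters, from 13 members, and those that did not pass had 28, from 24 members. The E-box occurred in 18.8% of the former and 17.9% of the latter, and CCAAT in 50.0% of each. The NRF1 core occurred in 25.0% and 10.7%, TTTGAA in 37.5% and 14.3%, and the GC box in 68.8% and 64.3%. An E2F site occurred in 3 of the 16 and 0 of the 28. These differences rest on few promoters and were not tested. A match is only an occurrence of these letters, and no binding was measured.

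Of the Ran cycle genes 3 of 4 rose, with a median of 1.57. For this and the counts of the other role groups below, 8.23% of all genes tested rose. Wherever both 5-FU values are said below to lie above both controls, 31.4% of all genes tested showed that order. Ran, the GTPase itself (chromosome 5, 129020156 to 129024322), had 133.7 and 129.8 FPKM in control recipients 1 and 2 and 373.4 and 569.8 FPKM in 5-FU recipients 1 and 2. Both 5-FU libraries were above both controls, with replicate 2 the higher, and the log2 fold change was 1.80 (SE 0.25, adjusted p = 0.011). Ranbp1, which helps Rangap1 to release Ran-GTP from transport receptors (chromosome 16, 18239979 to 18248694), was the most abundant member, at 261.6 and 201.1 FPKM in the control and 680.5 and 996.2 FPKM in the 5-FU libraries. It had the largest rise among the members tested, 1.84 (SE 0.27, adjusted p = 0.012). The level of Ranbp1 relative to Ran was 1.96 and 1.55 in the control and 1.82 and 1.75 in the 5-FU libraries, so that ratio overlapped between the groups. Rangap1, the GTPase-activating protein (chromosome 15, 81704248 to 81730798), had 15.9 and 16.5 FPKM in the control and 37.5 and 48.8 FPKM in the 5-FU libraries, a rise of 1.35 (SE 0.22, adjusted p = 0.015). Rcc1, the exchange factor on chromatin, had 24.2 and 35.9 FPKM in the control and 52.4 and 43.0 FPKM in the 5-FU libraries. Its groups did not overlap, but its change of 0.67 (SE 0.25, 95% interval 0.10 to 1.24) did not pass (adjusted p = 0.11). Ran has processed copies in the genome, 16.9% of the exonic bases of Ranbp1 are shared with the same-strand gene Gm49776 in GENCODE M21 and 3.51% of those of Rcc1 with Snhg3, so reads could have been split between them.

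Importin alpha proteins bind classical nuclear localization signals and link cargo to importin beta. Kpna2 (chromosome 11, 106988629 to 106999525) had 68.9 and 97.0 FPKM in the control and 272.6 and 269.0 FPKM in the 5-FU libraries. The 5-FU libraries were alike and both far above the controls, and the rise was 1.72 (SE 0.22, adjusted p = 0.0098). Kpna2 was the 1 member of its family, among 5 tested, that rose in the main fit of all 4 libraries. A crossed replicate block, which pairs unlike replicate numbers, was added after seeing the data. In that fit of all 4 libraries Kpna3 passed too (adjusted p = 0.011). Without 5-FU replicate 1 Kpna3 passed as well (adjusted p = 0.0026), and without control replicate 1 neither did. Kpna3 had 21.2 and 20.1 FPKM in the control and 30.6 and 45.1 FPKM in the 5-FU libraries (log2 fold change 0.82, SE 0.24, adjusted p = 0.064). Kpna4 had 26.4 and 27.8 against 34.5 and 31.2 FPKM (0.27, 95% interval −0.19 to 0.73), and Kpna6 had 3.03 and 3.41 against 4.20 and 4.80 FPKM (0.38, −0.29 to 1.05). For these 3 both 5-FU values were above both controls, whereas those of Kpna1, between 19.5 and 25.7 FPKM in all libraries, overlapped. Kpna7, known from oocytes and early embryos, was listed at 0 in 3 libraries and had 0.104 FPKM in 5-FU recipient 1. Within the summed FPKM of the family, Kpna2 took 49.6% and 57.1% in the control and 75.4% and 71.6% in the 5-FU libraries. Kpna1, Kpna3, Kpna4 and Kpna6 together went from 70.1 and 72.8 FPKM to 88.9 and 106.8 FPKM. The difference between Kpna2 and the other importin alpha genes was not tested, and an exact permutation test on 2 against 2 libraries could not pass. The Kpna2 pseudogene Kpna2-ps is on another chromosome, and reads from it were not separated here.

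**Figure D3:**
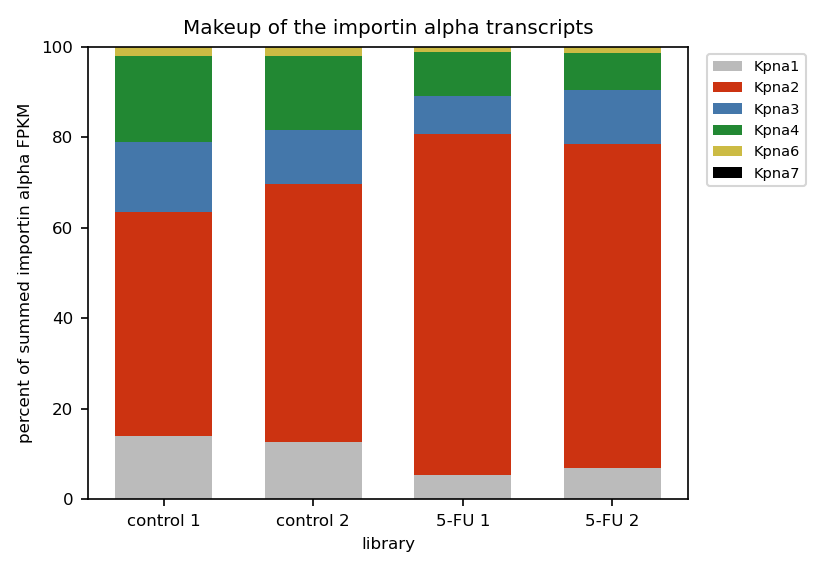
Share of each importin alpha gene in the family's summed FPKM, in percent, as 1 stacked bar per library. Kpna2 fills 49.6% and 57.1% of the control bars and 75.4% and 71.6% of the 5-FU bars.

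In the importin beta family, whose members carry cargo through the pore, 2 of 11 tested rose, with a median of 0.52. That is 18.2%, beside 8.23% of all genes tested. Ipo5, which imports ribosomal proteins and histones among others, had 35.1 and 29.6 FPKM in the control and 68.9 and 79.2 FPKM in the 5-FU libraries, a rise of 1.17 (SE 0.20, adjusted p = 0.016). Ipo7, another importer of ribosomal proteins, went from 6.31 and 8.996 to 31.7 and 18.7 FPKM (1.57, SE 0.31, adjusted p = 0.023). Its 5-FU libraries were uneven, and here replicate 1 was the higher. Kpnb1, importin beta itself and the partner of importin alpha, had 19.4 and 20.3 FPKM in the control and 30.1 and 45.4 FPKM in the 5-FU libraries. Its groups did not overlap, and the change of 0.86 (SE 0.25) missed the threshold (adjusted p = 0.059). Ipo4, at 11.4 and 18.8 against 29.3 and 26.0 FPKM, did not pass either (0.87, adjusted p = 0.074), and 55.3% of its exonic bases are shared with the same-strand gene Gm49378. The other 7, among them the transportins Tnpo1, Tnpo2 and Tnpo3, had changes of 0.00 to 0.66 and adjusted p of 0.097 or above. Tnpo1 and Ipo8 were the 2 members of this family whose groups overlapped.

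Exportins bind cargo together with Ran-GTP, and 3 of 6 rose, with a median of 0.95, where 8.23% of all genes tested rose. Cse1l, which returns importin alpha to the cytoplasm (chromosome 2, 166906041 to 166946389), had 26.6 and 24.3 FPKM in the control and 63.9 and 84.9 FPKM in the 5-FU libraries, a rise of 1.50 (SE 0.22, adjusted p = 0.012). Xpo1 (CRM1), the exporter of proteins with leucine-rich export signals (chromosome 11, 23255909 to 23297597), was even between replicates, with 27.1 and 27.0 FPKM in the control and 56.6 and 58.9 FPKM in the 5-FU libraries (1.07, SE 0.19, adjusted p = 0.017). Xpo5, which exports microRNA precursors, went from 10.4 and 10.0 to 24.4 and 26.4 FPKM (1.23, SE 0.22, adjusted p = 0.017). For these 3 the gap between the groups was wider than the spread within either. Xpo4 was low, with 1.36 and 2.81 FPKM in the control and 4.36 and 4.29 FPKM in the 5-FU libraries, and did not pass (0.83, adjusted p = 0.15). Xpo6, the exporter of actin and profilin, and Xpo7 had 0.37 (95% interval −0.14 to 0.88) and 0.27 (−0.42 to 0.96), and their groups did not overlap.

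Among the scaffold nucleoporins 4 of 6 members of the Y complex and 3 of 5 of the inner ring rose, with medians of 1.19 and 1.27. The share of all genes tested that rose was 8.23%. Of the Y complex, Nup43 had 13.7 and 10.8 FPKM in the control and 35.5 and 40.2 FPKM in the 5-FU libraries (1.56, SE 0.23, adjusted p = 0.012). Nup107 had 14.2 and 14.6 against 32.6 and 36.6 FPKM (1.21, SE 0.21), Nup85 had 37.7 and 33.4 against 68.6 and 95.3 FPKM (1.17, SE 0.22), and Nup37 had 26.4 and 20.5 against 47.2 and 76.0 FPKM (1.33, SE 0.27). In each of these both 5-FU libraries were above both controls, and adjusted p was 0.017, 0.020 and 0.024 for the last 3. The call of Nup37 was lost without a mean-variance trend. Nup160 at 0.97 (adjusted p = 0.051) and Nup133 at 0.79 (adjusted p = 0.13) did not pass, and their groups did not overlap. Nup205, an inner ring scaffold protein, had 8.37 and 8.20 FPKM in the control and 25.5 and 24.3 FPKM in the 5-FU libraries (1.48, SE 0.22, adjusted p = 0.013). Nup93, which holds the inner ring to the channel, went from 11.0 and 14.8 to 32.1 and 43.2 FPKM (1.48, SE 0.25, adjusted p = 0.016). The membrane-binding Nup35 went from 3.76 and 4.22 to 10.5 and 11.6 FPKM (1.27, SE 0.26, adjusted p = 0.025). The replicates of Nup205 and Nup35 differed little beside the distance between the groups. Nup155 at 0.96 (adjusted p = 0.057) and Nup188 at 0.77 (adjusted p = 0.079) did not pass. Nup210, a glycoprotein of the pore membrane, had 17.4 and 18.8 FPKM in the control and 30.8 and 39.3 FPKM in the 5-FU libraries and rose by 0.91 (SE 0.22, adjusted p = 0.038), a call lost under quantile scaling and without a mean-variance trend.

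None of the 8 nucleoporins of the channel, the cytoplasmic side and the nuclear basket passed in the main fit of all 4 libraries. Calls among them changed when 5-FU replicate 1 was left out, as did calls over all genes. A lone library is then taken to vary as the other group does. In that fit the log2 fold changes were 1.44 for Nup54, 0.73 for Nup62 and 0.40 for Nup98. They were 0.78 for Nup88, 0.60 for Ranbp2, 0.02 for Nup214, 0.92 for Nup153 and 1.04 for Nup50. In other fits of all 4 libraries Nup54 passed with a filter of 5 FPKM (adjusted p = 0.043), robust eBayes (0.048) and the replicate block (0.035). With the crossed replicate block 4 of the 8 passed, Nup50, Nup54, Nup62 and Nup153, beside 14.7% of all genes. In the channel, Nup54 had 19.2 and 15.9 FPKM in the control and 28.5 and 49.1 FPKM in the 5-FU libraries (1.06, SE 0.29, adjusted p = 0.052). Nup62 was the most abundant of the 3, at 44.9 and 47.9 against 67.5 and 77.6 FPKM (0.63, SE 0.19, adjusted p = 0.066). Nup98, whose transcript also encodes the Y complex protein Nup96, had 8.97 and 12.7 against 14.6 and 14.5 FPKM (0.41, 95% interval −0.19 to 1.01). In all 3 both 5-FU libraries were higher. On the cytoplasmic side Nup88 had 30.6 and 29.3 against 36.0 and 52.1 FPKM (0.52, −0.02 to 1.06). Ranbp2 (Nup358), the filament protein that binds SUMO-modified Rangap1, had 9.49 and 9.71 against 12.6 and 15.1 FPKM (0.48, −0.08 to 1.04). Nup214 had 6.88 and 8.37 against 10.7 and 7.72 FPKM, and 5-FU recipient 2 fell between the controls (0.24, −0.42 to 0.89). The basket protein Nup153 had 12.4 and 13.5 against 18.8 and 25.4 FPKM (0.72, SE 0.24, adjusted p = 0.089). Nup50, the other basket member, had 14.4 and 14.6 against 20.1 and 30.8 FPKM (0.75, SE 0.26, adjusted p = 0.095). The upper bounds of these 8 intervals ran from 0.89 for Nup214 to 1.72 for Nup54, and the difference between scaffold and peripheral nucleoporins was not tested.

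The remaining rows were too low to test. Nup62cl was listed at 0 in every library, Nup210l stayed between 0.0476 and 0.136 FPKM, and the read-through transcript Nup62-il4i1, which shares exons with Nup62, stayed between 0.412 and 1.53 FPKM.

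Pore and transport genes outside the symbol rule were mostly positive as well, 17 of 19 tested among 20 listed, beside 49.2% of all genes tested. Of the 19, 5 rose, none fell and 14 did not pass, with a median of 0.54. Thus 26.3% rose, beside 8.23% of all genes tested. Ndc1, listed in the files as Tmem48 and one of the proteins that anchor the pore in the membrane, had 7.80 and 8.09 FPKM in the control and 28.5 and 35.2 FPKM in the 5-FU libraries (1.87, SE 0.23, adjusted p = 0.0090). Pom121, another membrane anchor, had 7.70 and 8.39 against 19.1 and 24.8 FPKM (1.33, SE 0.25, adjusted p = 0.019). Rangrf, which binds Ran and releases its nucleotide, had 19.3 and 12.6 against 40.7 and 63.7 FPKM (1.64, SE 0.29, adjusted p = 0.018). All 3 had both 5-FU libraries above both controls, the order of 31.4% of all genes tested. The other 2 that rose, Aaas and Seh1l, were chosen once their values were known, as were the 2 with a negative change that did not pass, Snupn (−0.52) and Ranbp6 (−0.37). Snupn had 31.0 and 25.4 FPKM in the control and 19.3 and 19.1 FPKM in the 5-FU libraries, so both 5-FU values lay below both controls (95% interval −1.02 to −0.02, adjusted p = 0.14). Export of mRNA passes through the same pores but uses Nxf1 in place of Ran-driven receptors. Among 20 genes of mRNA export 6 rose, none fell and 14 did not pass, with a median of 0.71. Here 30.0% rose, beside 8.23% of all genes tested. The RNA helicase gene Ddx39 had 49.96 and 53.2 FPKM in the control and 122.7 and 171.0 FPKM in the 5-FU libraries (1.47, SE 0.22, adjusted p = 0.012). Alyref, the adaptor that loads Nxf1 on mRNA, had 151.0 and 136.8 against 315.3 and 482.6 FPKM (1.43, SE 0.25, adjusted p = 0.017). Thoc6, a subunit of the THO complex, had 16.9 and 15.3 against 30.4 and 35.8 FPKM (0.99, SE 0.21, adjusted p = 0.027). Calls in both lists depended on both control libraries, as they did over all genes. Without control replicate 1 or control replicate 2 the median was 0.7 and 0.7 for mRNA export and 0.56 and 0.53 for the 19 others.

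**Figure D4:**
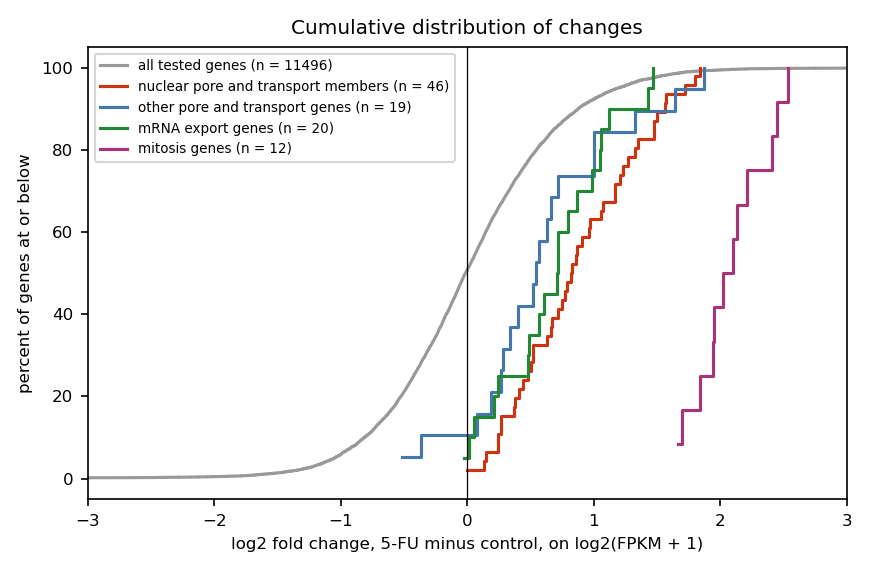
Cumulative share of genes, in percent, at or below each log2 fold change (5-FU minus control, on log2(FPKM + 1), drawn from −3 to 3). The line of the 46 nuclear transport members lies to the right of the grey line of all 11496 tested genes, with a median of 0.82 against −0.01, and to the left of the 12 mitosis genes, with a median of 2.06.

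Genes of mitosis moved with the members. All 12 of a fixed list, among them Mki67, Top2a and Cdk1, rose, with a median of 2.06, beside 8.23% of all genes tested. Their summed level was 142.9 and 189.2 FPKM in the control and 661.0 and 844.6 FPKM in the 5-FU libraries. The order of the 5-FU libraries, replicate 2 above replicate 1, was that of the members' sum, while the controls were in the opposite order. Markers of other cells moved the other way, and for the counts that follow 4.67% of all genes tested fell. Of the 12 macrophage markers 2 fell and none rose, with a median of −0.96, and 5-FU recipient 2, with the highest sum of members, had the lowest macrophage sum. Of 11 granulocyte markers 7 fell, from sums of 12689 and 10106 to 3758 and 3555 FPKM, with Fcnb listed at 0 in both 5-FU libraries. Of 8 erythroid markers 7 fell, from 492.3 and 735.2 to 66.9 and 59.3 FPKM. Ermap was listed at 0 in both 5-FU libraries and Alas2 in replicate 1. Of 7 tested B cell markers 4 fell, from 357.0 and 362.7 to 199.3 and 158.5 FPKM, with Igll1 listed at 0 in both 5-FU libraries and Pax5 in 3 of the 4 libraries. Of the 12 stem and progenitor markers 1 rose, none fell, and the median was 0.20. That share of 8.33% was near the 8.23% of all genes tested that rose. The part of cell division and of these other cells in the members' rise was not tested.

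**Figure D5:**
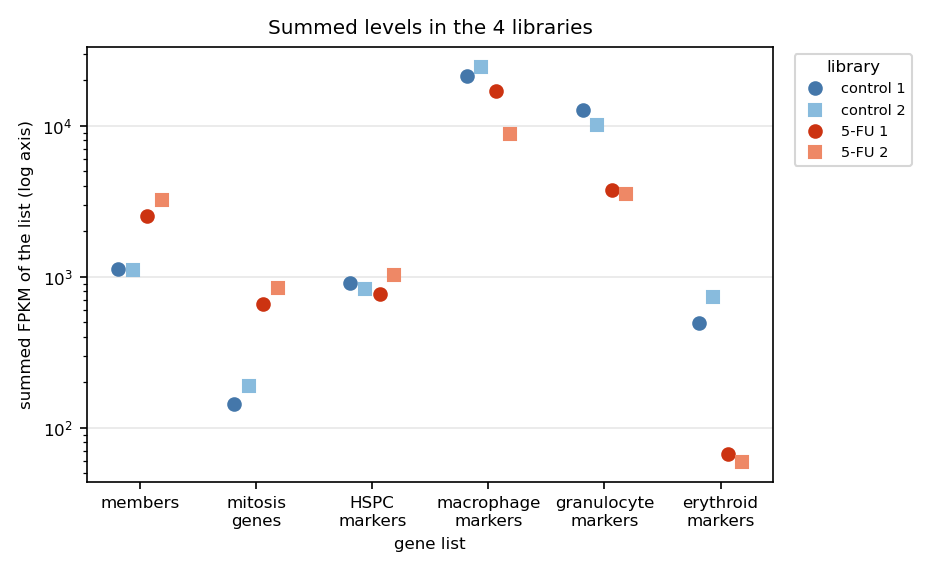
Summed FPKM, on a log axis, of the members and of fixed gene lists in the 4 libraries; blue marks control and red 5-FU recipients, circles replicate 1 and squares replicate 2. The members went from 1123 and 1105 to 2507 and 3210 FPKM beside the mitosis genes, the progenitor markers overlapped, and the macrophage, granulocyte and erythroid sums were lower in both 5-FU libraries.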

How the data were processed

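The RNA of EGFP+ cells was sequenced as 75 bp single-end reads from SMART-Seq Ultra Low Input libraries, per the labels' protocols. Per the submitters' processing notes, the authors used TopHat2 2.0.13, Bowtie2 2.2.3, SAMtools 0.1.19 and Cuffnorm 2.2.1 with mm10, and the deposited values are FPKM. The gene annotation, the strand setting and Cuffnorm's library scaling are not stated in any source used here. The headers of the 5-FU columns read day 3 where the names of those files read day 2, and neither says from when days were counted. Groups, and the 2 days between 5-FU and transplant, follow the labels' protocols.

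FPKM were used as deposited, with a pseudocount of 1 and a filter of 1 FPKM in at least 2 libraries. Groups were compared by limma 3.58.1 in R 4.3.3 (eBayes with its trend option, two-sided tests), with 2 residual and 5.62 prior degrees of freedom and Benjamini-Hochberg adjustment over all tested genes. An exact permutation test could not pass with 2 libraries a group. What the p-values measure is variation among recipients, as far as each library is 1 recipient.

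The members and lists were chosen with earlier results of these data known. Named were all Ran cycle genes, all tested members of role groups of at most 4, otherwise the 4 of smallest p and the most abundant, untested members, and the 3 of smallest p in each further list of pathway genes. Other members named, such as Kpna1, Ipo8 and Nup160, were chosen after their values were seen. Coordinates and promoters come from RefSeq GRCm38.p6 and exon overlaps from GENCODE M21. Alternatives were other pseudocounts, filters, scalings and variance models, the replicate number as a block, and leaving out each library. The value of 1 marker gene is not reported here. Figures were drawn with matplotlib 3.10.9.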

Additional observations from a re-analysis of the deposited data

How the results depend on the processing

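The 17 members that rose also did under pseudocounts of 0.1 and 5, a filter of 5 FPKM, median-ratio and TPM scaling and robust eBayes. Of the 17, 16 did under quantile scaling and 15 without a trend. In all, 21 of 42 members rose with the filter of 5 FPKM and 19 with robust eBayes. The shares of all genes that rose were 7.39% and 8.33% with those pseudocounts, 11.9% with that filter and 8.6% with robust eBayes. They were 7.99%, 6.75% and 7.07% under median-ratio, TPM and quantile scaling. With no filter the counts of higher genes were 0 of 49 members, 0 of 20 other pathway genes and 0 of 20 mRNA export genes, beside 0.0183% of all genes. Without a trend 3 other pathway genes and 2 mRNA export genes rose, beside 4.77% of all genes. Leaving out 1 library gave 1 to 28 members, 1 to 8 other pathway genes and 0 to 12 mRNA export genes, the low values without either control library and the high values without 5-FU replicate 1, where a lone library is taken to vary as the other group does. The share of all genes that rose moved in the same direction, to 0.765% and 0.800% without a control library and 18.5% without 5-FU replicate 1. No member fell in any alternative run. The members' median was 0.87 and 0.65 with pseudocounts of 0.1 and 5, 0.77 under quantile and 0.77 under TPM scaling, and 0.73 to 0.98 with a library left out. The mRNA export median was 0.51 to 0.90 with a library left out. The median of all genes was −0.09 under TPM scaling, 0.03 with a filter of 5 FPKM and −0.02 to 0.01 with a library left out. Changes of sign were seen for Ipo8, at −0.01 with a pseudocount of 0.1, 0.00 under median-ratio scaling, −0.07 under TPM scaling and −0.50 to 0.51 with a library left out, for Kpna1 at −0.06 to 0.31 and for Tnpo1 at −0.21 to 0.52 with a library left out. The causes of these changes between settings were not tested. The replicate numbers pair nothing the labels name. With the replicate block 18 members rose, beside 7.44% of all genes. The deviations of same-numbered libraries correlated at −0.159 across genes. With the crossed replicate block, added after seeing the data, 28 members and 11 mRNA export genes rose, beside 14.7% of all genes.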

Other observations

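Shares within the receptor families describe their makeup in each library. Among exportins Cse1l took 30.3% and 28.8% of the family's summed FPKM in the control and 35.6% and 42.5% in the 5-FU libraries, and Xpo6 took 22.1% and 20.5% against 14.6% and 11.0%. Xpo1 took 30.8% and 32.1% against 31.5% and 29.5%, so its groups overlapped. In the importin beta family Ipo9 took 12.6% and 11.4% in the control and 9.19% and 7.11% in the 5-FU libraries, while Kpnb1 took 12.8% and 12.7% against 10.9% and 16.5%, with the 5-FU libraries on either side of the controls. These shares are descriptions of 2 libraries per group and were not tested.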
